A study of Mus musculus with 8 samples.

Results

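The 38 genes described here encode the machinery that copies DNA, the enzymes that supply its nucleotides, and the proteins that rebuild chromatin behind the fork. They were picked by gene symbol. Each Ensembl gene ID of the deposited tables was matched to a mouse symbol in the GENCODE M21 annotation, and all 38 were found among 50686 genes. All 38 also passed the filter on low counts, which kept 16066 genes. By function they form 7 groups: the sliding clamp and its loader (6 genes), DNA polymerases and primase (9), single-strand binding and lagging-strand processing (5), nucleotide supply (6), GINS and Mcm10 (5), chromatin assembly and DNA methylation (5), and cyclin E (2).

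The RNA came from hematopoietic stem cells (HSCs), the rare marrow cells that maintain all blood lineages, sorted by size from the long bones of C57BL/6J mice. The Large and Small gates took the 10% largest and the 10% smallest HSCs by light scatter, and the Medium gate took those whose size was within 10% of the mean. The group called All was not divided by size. Each group has 2 libraries, called number 1 and number 2 after the titles, and each library held RNA of 10000 cells in G0/1 phase. The labels name no mutation, transgene or drug for these 4 groups, and give neither the age of the mice nor whether marrow of several animals was pooled. HSCs of drug-treated and vehicle-treated mice, which the series also covers, were not analysed here.

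In a dividing cell the GINS complex joins the helicase that opens the double helix, replication protein A coats the exposed single strands, and the DNA polymerase alpha-primase complex lays down short primers. The clamp loader then places the ring-shaped clamp PCNA, on which the polymerases delta and epsilon extend the strands, and a flap nuclease and a ligase join the lagging-strand fragments. Ribonucleotide reductase and thymidylate synthase make the deoxynucleotides, and CAF-1 deposits new histones on the copied DNA. Many of these genes are textbook targets of E2F transcription factors, which are released when cyclin-dependent kinases, with cyclin E among their partners, phosphorylate the retinoblastoma protein. HSCs in adult marrow are for the most part out of the division cycle.

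Total estimated counts lay between 13698362 and 16838448 per library. Values are CPM, counts scaled to a common library total, with TMM factors that correct for library composition. Pairs of values are given for number 1 and then number 2. The libraries separated by replicate number before size: on the first principal component the number 1 libraries lay between -81.2 and -31.1 and the number 2 libraries between 0.984 and 106. Nothing in the labels says that a group's 2 libraries came from different mice, so a p-value here reflects only how far these libraries spread, which may be technical. The HSC surface markers used in the sort were detected in every library, with the highest and the lowest at 1196 and 513 CPM for Kit, 366 and 20.4 CPM for Ly6a (Sca-1), and 22.6 and 7.58 CPM for Slamf1 (CD150).

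All 38 replication genes were more abundant in the Large library than in the Small library of number 1, and again in number 2. Across all genes tested, 32.9% were higher within both numbers. Both Large libraries lay above both Small libraries for 33 of the 38, against 17.7% of all genes. The median fitted log2 fold change of the 38 was 0.83, with a range of 0.35 to 1.65, and the median over all genes was 0.00. Within number 1 the median difference was 0.57 and within number 2 it was 1.18. The fitted median was 1.31 without Small 1 and 0.45 without Small 2. These are shares of a library, so fewer cells of a type and less RNA per cell cannot be told apart.

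Summed over the 38 genes, the level was 9088 and 7746 CPM in Large, 6052 and 3639 in Medium, 6339 and 3523 in Small, and 6429 and 3213 in All. The Large library was the highest of its number in both cases, and the other 3 groups of a number lay close together. The sums of number 2 outside Large were between 3213 and 3639 CPM, and those of number 1 between 6052 and 6429 CPM, so Large 2, at 7746 CPM, stood above every library of number 1 except Large 1.

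No gene of the 16066, and so none of the 38, passed edgeR's quasi-likelihood test between Large and Small with Benjamini-Hochberg adjustment at 0.05 (0% called; adjusted p = 0.975 for each of the 38). At an unadjusted p under 0.05, 7 of the 38 were higher, against 1.77% of all genes. Those 7 were Pcna, Rfc1, Pola1, Pola2, Prim1, Pole and Lig1, chosen after their values were seen. The spread in this test includes the difference between the replicate numbers. With the number as a block, edgeR again called 0 of the 38 (lowest adjusted p = 0.0612, with 33 higher at an unadjusted p under 0.05, against 9.44% of all genes), limma-voom called 0, and DESeq2 called 29 higher and 0 lower, against 4.68% of all genes called higher. Calls among the 38 therefore depend on the setting: apart from DESeq2 with the block, only edgeR with no filter on low counts made one, of Pola1 (adjusted p = 0.00219). Most adjusted p-values printed gene by gene below are from DESeq2 with the block, the setting that called the most of the 38.

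**Figure D1:**
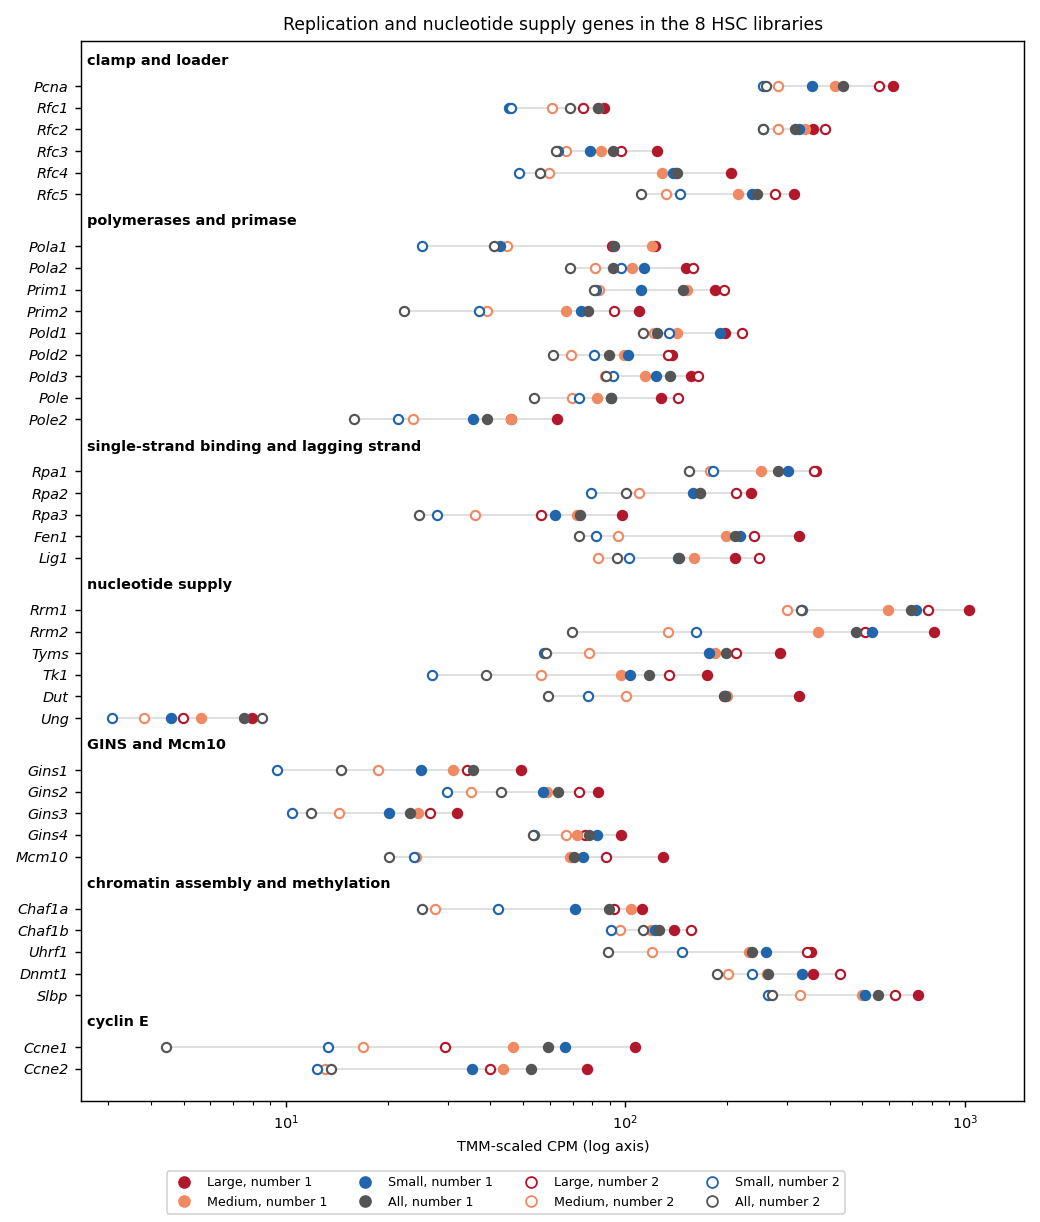
Each row is 1 gene and each point 1 library, as TMM-scaled CPM on a log axis; filled points are number 1 and open points number 2, and colours give Large, Medium, Small and All. The rightmost point of a row is a Large library for 37 of the 38 genes, and the leftmost is a number 2 library for 37 of the 38.

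The promoters of these genes were searched for E2F letters because all the members differed in one direction between Large and Small. Many of the 38 are textbook E2F targets, so the share with such letters may follow from how the list was drawn. All 38 were higher in Large than in Small within both numbers, with or without such letters. A part of E2F in the size difference was not tested. RefSeq (GRCm38.p6) gives a window of 250 bases before to 50 bases after the start for 31 of the 38 genes. The letters TTTCCCGC, TTTGGCGC, TTTCGCGC or TTTGCCGC, on either strand, stood in 9 of these 31 (29%). They stood in 4.62% of protein-coding genes tested that have a window, and in 2.6% of all genes with a window. A gene was counted if any of its windows held them. Polymerase and primase genes held them in 4 of 7, chromatin genes in 2 of 5, and nucleotide supply genes in 0 of 6. The shorter letters CCAAT, also on either strand, stood in 17 of 31 (54.8%) against 43.1% of protein-coding genes tested. In Lig1, Pold1, Pold3 and Pole2 the E2F letters lay after the start. The matches before the start are printed with their flanks, the match in capitals, to let the letters be set beside the levels of each gene. Each is read 5′ to 3′ along the gene. The stretch of Rfc3 lies at chr5:151651209-151651229 on the minus strand. That of Gins3 lies at chr8:95633507-95633536 on the plus strand and that of Dnmt1 at chr9:20952824-20952853 on the minus strand. That of Uhrf1 lies at chr17:56304117-56304146 on the plus strand and that of Pola1 at chrX:93632275-93632304 on the minus strand. For Dnmt1 and Uhrf1 the start in question is the inner of the starts listed.
Rfc3: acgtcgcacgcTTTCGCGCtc
Gins3: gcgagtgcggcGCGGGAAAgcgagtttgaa
Dnmt1: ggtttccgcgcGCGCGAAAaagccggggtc
Uhrf1: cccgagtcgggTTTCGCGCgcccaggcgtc
Pola1: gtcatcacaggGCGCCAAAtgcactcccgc

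A match is a description of the sequence, not evidence of binding. The capitals read as TTTCGCGC in Rfc3 and Uhrf1, and in Gins3, Dnmt1 and Pola1 as the opposite strand of TTTCCCGC, TTTCGCGC and TTTGGCGC in turn. These 5 genes include the largest Large against Small difference of the whole set (Pola1, log2 1.65) and one of the smallest (Dnmt1, log2 0.47).

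The clamp and its loader were higher in both Large libraries than in both Small libraries for all 6 genes (17.7% of all genes). Their median log2 fold change was 0.72 (0.36 to 0.95). Pcna, the sliding clamp itself (chromosome 2, 132249162 to 132253314), had 617 and 559.8 CPM in Large, 415 and 282 in Medium, 356 and 255 in Small, and 438 and 259 in All. Both Large libraries stood above the 6 others, and Medium, Small and All overlapped. Pcna gave log2 0.95 (SE 0.33) for Large against Small, with 0.79 within number 1 and 1.13 within number 2. Pcna had an adjusted p = 2.89e-06 in DESeq2 with the block, 0.0649 in edgeR with the block and 0.975 in edgeR without it. Rfc2, a small subunit of the loader, had the highest level per transcript length of the 38, a mean of 531 TPM, a unit scaled by transcript length. In CPM it had 357 and 389 CPM in Large, 338 and 282 in Medium, 326 and 255 in Small, and 317 and 254 in All. Its Large values were the highest by a narrow margin, and its difference from Small was the smallest of the clamp genes. Rfc2 gave log2 0.36 (SE 0.22) for Large against Small, with 0.13 within number 1 and 0.61 within number 2. Rfc2 had an adjusted p = 0.102 in DESeq2 with the block.

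The remaining small subunits followed Pcna. Rfc3 had 124 and 96.9 CPM in Large, 85.0 and 67.1 in Medium, 79.0 and 63.4 in Small, and 92.3 and 62.7 in All. Rfc4 had 206 and 141 CPM in Large, 128 and 59.7 in Medium, 139 and 48.8 in Small, and 143 and 56.0 in All. Rfc5 had 315 and 277 CPM in Large, 215 and 132 in Medium, 237 and 145 in Small, and 244 and 111 in All. For Rfc3 and Rfc5 both Large libraries were above all others, while for Rfc4 Large 2 lay just under All 1. Rfc3 gave log2 0.64 (SE 0.28) for Large against Small. Rfc4 gave log2 0.89 (SE 0.65) for Large against Small, with 0.57 within number 1 and 1.53 within number 2. Rfc4 had an adjusted p = 0.000724 in DESeq2 with the block. Rfc5 gave log2 0.63 (SE 0.44) for Large against Small. Rfc1, the large subunit that opens the clamp (chromosome 5, 65261850 to 65335670), was singled out after its values were seen. It had 86.3 and 74.9 CPM in Large, 83.2 and 60.8 in Medium, 45.5 and 46.2 in Small, and 82.9 and 69.0 in All. In Rfc1 the Small libraries stood apart, below every other library, and Large, Medium and All overlapped. Rfc1 gave log2 0.81 (SE 0.24) for Large against Small, with 0.92 within number 1 and 0.70 within number 2. Rfc1 had an adjusted p = 0.00175 in DESeq2 with the block. Large against Medium gave only log2 0.16, SE 0.23.

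For 9 of 9 polymerase and primase genes both Large libraries lay above both Small libraries (17.7% of all genes). Their median log2 fold change was 0.73 (0.37 to 1.65). Prim1, the catalytic primase subunit (chromosome 10, 128015168 to 128030037; mean 106 TPM, the highest of the 9), had 184 and 195 CPM in Large, 152 and 83.7 in Medium, 111 and 82.2 in Small, and 148 and 80.8 in All. Both Large libraries were above the others, and in number 2 the other 3 libraries were close to each other and far below Large. Prim1 gave log2 0.97 (SE 0.39) for Large against Small, with 0.72 within number 1 and 1.25 within number 2. Prim1 had an adjusted p = 0.00216 in DESeq2 with the block. Pola1, the catalytic subunit of polymerase alpha (chromosome X, 93304767 to 93632155), had 122 and 91.5 CPM in Large, 119.8 and 44.7 in Medium, 42.8 and 25.2 in Small, and 92.9 and 41.0 in All. Its Small libraries were the lowest of their number, and its Large and Medium values in number 1 were nearly the same. Pola1 gave log2 1.65 (SE 0.59) for Large against Small, with 1.51 within number 1 and 1.86 within number 2. Pola1 had an adjusted p = 2.36e-07 in DESeq2 with the block, 0.0612 in edgeR with the block and 0.975 in edgeR without it. Its log2 of 1.65 was the largest Large against Small difference of the 38. Large against Medium gave only log2 0.38, SE 0.57, with overlapping libraries. Pold1, the catalytic subunit of polymerase delta (chromosome 7, 44532746 to 44548849), had 197 and 220.4 CPM in Large, 142 and 122 in Medium, 189.7 and 134 in Small, and 124 and 113 in All. Within number 1 Large and Small were almost level, and the group difference was among the smallest. Pold1 gave log2 0.37 (SE 0.23) for Large against Small, with 0.05 within number 1 and 0.71 within number 2. Pold1 had an adjusted p = 0.179 in DESeq2 with the block.

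Prim2, the regulatory primase subunit, had 109.7 and 92.7 CPM in Large, 67.2 and 39.1 in Medium, 74.2 and 37.1 in Small, and 77.5 and 22.3 in All. Pole2, the second subunit of polymerase epsilon, had 62.9 and 46.2 CPM in Large, 46.0 and 23.8 in Medium, 35.7 and 21.4 in Small, and 39.2 and 15.9 in All. In both, the number 2 libraries other than Large were the lowest 3 of the 8. Prim2 gave log2 0.86 (SE 0.61) for Large against Small. Prim2 had an adjusted p = 0.0352 in DESeq2 with the block. Pole2 gave log2 0.93 (SE 0.53) for Large against Small. Pole2 had an adjusted p = 0.00923 in DESeq2 with the block. The other 4 genes, Pola2 (second subunit of polymerase alpha), Pold2 and Pold3 (accessory subunits of polymerase delta) and Pole (catalytic subunit of polymerase epsilon), had fitted log2 differences of 0.56 to 0.73 between Large and Small. Their Large libraries lay between 127 and 163 CPM and their Small libraries between 72.9 and 123 CPM, and in each gene both Large libraries were the highest of the 8.

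Of the 5 genes for single-strand binding and the lagging strand, 4 were free of overlap between Large and Small, and Rpa3 was not. The median log2 fold change was 0.90 (0.58 to 0.91). Rpa1, the large DNA-binding subunit of replication protein A (chromosome 11, 75298166 to 75348324; mean 133 TPM), had 364 and 359 CPM in Large, 251 and 177 in Medium, 302 and 182 in Small, and 281 and 154 in All. The 2 Large libraries were nearly equal and above the rest, and the difference from Small was the smallest of the 5. Rpa1 gave log2 0.58 (SE 0.37) for Large against Small, with 0.27 within number 1 and 0.98 within number 2. Rpa1 had an adjusted p = 0.0276 in DESeq2 with the block. Rpa2, the middle subunit, had 235 and 211 CPM in Large, 167 and 109.9 in Medium, 158 and 79.3 in Small, and 166 and 100.4 in All. Rpa3, the small subunit, had 97.6 and 56.4 CPM in Large, 72.4 and 36.1 in Medium, 62.0 and 28.0 in Small, and 73.6 and 24.8 in All. For Rpa2 the Large libraries were again the highest, while for Rpa3 Large 2 lay below the number 1 libraries of the other 3 groups. Rpa2 gave log2 0.91 (SE 0.41) for Large against Small, with 0.57 within number 1 and 1.41 within number 2. Rpa2 had an adjusted p = 0.000256 in DESeq2 with the block. Rpa3 gave log2 0.77 (SE 0.65) for Large against Small, with 0.65 within number 1 and 1.01 within number 2. Rpa3 had an adjusted p = 0.0109 in DESeq2 with the block.

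Fen1, the flap endonuclease that trims lagging-strand fragments (chromosome 19, 10199132 to 10204169), had 325 and 239 CPM in Large, 199 and 95.3 in Medium, 218 and 82.0 in Small, and 210.3 and 73.2 in All. Lig1, the ligase that joins them, had 211 and 248 CPM in Large, 159 and 83.3 in Medium, 143 and 103 in Small, and 144 and 94.8 in All. In Fen1 and Lig1 both Large libraries were the highest of the 8. Fen1 gave log2 0.91 (SE 0.65) for Large against Small, with 0.58 within number 1 and 1.54 within number 2. Fen1 had an adjusted p = 0.000896 in DESeq2 with the block. Lig1 gave log2 0.90 (SE 0.37) for Large against Small, with 0.56 within number 1 and 1.27 within number 2. Lig1 had an adjusted p = 0.006 in DESeq2 with the block. DESeq2 with the block called all 5 genes of this group higher, against 4.68% of all genes. It also called 8 of 9 polymerase genes and 5 of 6 clamp genes higher.

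Nucleotide supply genes had a median log2 fold change of 0.93 between Large and Small (0.75 to 1.24). All 6 were higher in Large within both numbers (32.9% of all genes), with 4 free of overlap (17.7% of all genes). Rrm1, the large subunit of ribonucleotide reductase (chromosome 7, 102441695 to 102469771; mean 288 TPM, the highest of the 6), had 1030.4 and 782 CPM in Large, 593 and 299 in Medium, 721 and 332 in Small, and 694 and 329 in All. Both Large libraries were the highest of the 8. Rrm1 gave log2 0.78 (SE 0.53) for Large against Small, with 0.52 within number 1 and 1.24 within number 2. Rrm1 had an adjusted p = 0.000219 in DESeq2 with the block. Rrm2, the small subunit that carries the radical (chromosome 12, 24708241 to 24714146), had 812 and 510.0 CPM in Large, 371 and 134 in Medium, 533 and 162 in Small, and 479 and 69.9 in All. Its highest and lowest libraries, Large 1 and All 2, were 11.6-fold apart, and Large 2 lay below Small 1, so the groups overlapped. Rrm2 gave log2 0.93 (SE 0.96) for Large against Small, with 0.61 within number 1 and 1.66 within number 2. Rrm2 had an adjusted p = 0.147 in DESeq2 with the block. Rrm2 was called by edgeR in Large against Medium (adjusted p = 0.00564) and Large against All (adjusted p = 0.0113) when no filter on low counts was used, and not with the filter.

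Tyms, thymidylate synthase, had 286 and 212 CPM in Large, 184 and 78.5 in Medium, 177 and 57.8 in Small, and 198 and 58.5 in All. Tk1, the thymidine kinase of the salvage route (chromosome 11, 117815526 to 117826092), had 174 and 134 CPM in Large, 97.3 and 56.5 in Medium, 103 and 27.0 in Small, and 117 and 38.8 in All. Dut, the dUTPase that keeps uracil out of DNA, had 325 and 195 CPM in Large, 199 and 101 in Medium, 196 and 77.9 in Small, and 196 and 59.3 in All. In Tyms and Tk1 both Large libraries were above all others, and in Dut Large 2 lay just under the number 1 libraries of the other groups. Tyms gave log2 1.09 (SE 0.74) for Large against Small. Tyms had an adjusted p = 0.000375 in DESeq2 with the block. Dut gave log2 0.92 (SE 0.69) for Large against Small. Dut had an adjusted p = 0.000784 in DESeq2 with the block. Tk1 gave log2 1.24 (SE 0.73) for Large against Small, with 0.75 within number 1 and 2.31 within number 2. Tk1 had an adjusted p = 0.000567 in DESeq2 with the block. Its difference within number 2 was the largest of the 38 in this comparison. Ung, the glycosylase that removes uracil from DNA (chromosome 5, 114130386 to 114139323), was the lowest gene per length, at a mean of 3.49 TPM. It had 7.93 and 4.998 CPM in Large, 5.63 and 3.82 in Medium, 4.60 and 3.07 in Small, and 7.52 and 8.50 in All. Its highest library was All 2 and its lowest Small 2, so it was the 1 gene of the 38 whose highest value was outside Large. Ung gave log2 0.75 (SE 0.52) for Large against Small, with 0.77 within number 1 and 0.68 within number 2. DESeq2 gave it no adjusted p in this comparison.

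Among the helicase partners, the 4 GINS subunits and Mcm10, the median log2 fold change was 0.94 (0.35 to 1.28). In 4 of 5 both Large libraries lay above both Small libraries (17.7% of all genes). Gins1 (chromosome 2, 150905400 to 150931280) had 49.3 and 34.2 CPM in Large, 31.1 and 18.7 in Medium, 25.0 and 9.43 in Small, and 35.6 and 14.5 in All. Gins4 (chromosome 8, 23226616 to 23237659; mean 78.0 TPM, the highest of the 5) had 97.1 and 76.3 CPM in Large, 72.4 and 66.8 in Medium, 82.5 and 53.7 in Small, and 78.4 and 53.4 in All. Gins1 had the largest and Gins4 the smallest difference of the group, and for Gins4 Large 2 lay below All 1 and Small 1. Gins1 gave log2 1.28 (SE 0.62) for Large against Small, with 0.98 within number 1 and 1.84 within number 2. Gins1 had an adjusted p = 0.000601 in DESeq2 with the block. Gins4 gave log2 0.35 (SE 0.30) for Large against Small, with 0.23 within number 1 and 0.51 within number 2. Gins4 had an adjusted p = 0.249 in DESeq2 with the block.

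Gins2 had 83.3 and 72.9 CPM in Large, 59.0 and 35.1 in Medium, 57.2 and 29.8 in Small, and 63.5 and 43.1 in All. Gins3 had 32.0 and 26.6 CPM in Large, 24.5 and 14.3 in Medium, 20.2 and 10.4 in Small, and 23.2 and 11.9 in All. Mcm10, which helps to activate the assembled helicase, had 129 and 87.9 CPM in Large, 68.6 and 24.3 in Medium, 74.9 and 23.9 in Small, and 70.6 and 20.2 in All. In all 3 the Large libraries were the highest 2, and in Mcm10 the 3 other libraries of number 2 were all between 20.2 and 24.3 CPM. Gins2 gave log2 0.84 (SE 0.41) for Large against Small. Gins3 gave log2 0.94 (SE 0.50) for Large against Small. Mcm10 gave log2 1.14 (SE 0.80) for Large against Small, with 0.79 within number 1 and 1.87 within number 2. Mcm10 had an adjusted p = 0.00079 in DESeq2 with the block. DESeq2 with the block called 4 of the 5 higher, Gins4 being the exception, against 4.68% of all genes.

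The 5 chromatin genes were all higher in both Large libraries than in both Small ones (17.7% of all genes). Their median log2 fold change was 0.77 (0.47 to 0.85). Slbp, which binds the stem-loop of histone mRNAs (chromosome 5, 33634952 to 33652574; mean 426 TPM, second among the 38), had 731 and 622 CPM in Large, 499 and 326 in Medium, 509.5 and 263 in Small, and 554 and 271 in All. Chaf1a, the large subunit of the histone chaperone CAF-1 (chromosome 17, 56040439 to 56072289), had 112 and 92.5 CPM in Large, 104 and 27.5 in Medium, 71.1 and 42.3 in Small, and 89.6 and 25.2 in All. Chaf1b, the middle subunit, had 139.5 and 157 CPM in Large, 119 and 96.7 in Medium, 123 and 90.6 in Small, and 126 and 113 in All. Slbp and Chaf1b were highest in the 2 Large libraries, whereas Chaf1a was nearly as high in Medium 1 as in Large 1 and spread widely by number. Slbp gave log2 0.81 (SE 0.45) for Large against Small, with 0.52 within number 1 and 1.24 within number 2. Chaf1a gave log2 0.85 (SE 0.75) for Large against Small, with 0.66 within number 1 and 1.13 within number 2. Chaf1b gave log2 0.47 (SE 0.23) for Large against Small, with 0.19 within number 1 and 0.79 within number 2.

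Uhrf1, which recognises hemimethylated CpG sites and brings Dnmt1 to them, had 352 and 344 CPM in Large, 231 and 119.8 in Medium, 260.0 and 147 in Small, and 237 and 88.8 in All. Dnmt1, the maintenance DNA methyltransferase (chromosome 9, 20907209 to 20959888), had 357 and 428 CPM in Large, 262 and 200.4 in Medium, 332 and 236 in Small, and 264 and 186 in All. Both Large libraries were the highest of the 8 in each gene, with a smaller gap for Dnmt1, whose number 1 values in Large and Small were close. Uhrf1 gave log2 0.77 (SE 0.53) for Large against Small, with 0.44 within number 1 and 1.23 within number 2. Dnmt1 gave log2 0.47 (SE 0.28) for Large against Small, with 0.11 within number 1 and 0.86 within number 2. DESeq2 with the block called Uhrf1 (adjusted p = 0.0205) and Slbp (adjusted p = 0.000581) and not Chaf1a, Chaf1b or Dnmt1 (adjusted p = 0.0893, 0.0687 and 0.0938).

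The products of the cyclin E genes start S phase with Cdk2, and Ccne1 had the widest spread of the 38. Ccne1 (chromosome 7, 38097984 to 38107534) had 107 and 29.5 CPM in Large, 46.8 and 16.9 in Medium, 66.5 and 13.3 in Small, and 59.1 and 4.45 in All. Ccne2 (chromosome 4, 11191351 to 11204779) had 77.2 and 40.0 CPM in Large, 43.5 and 13.1 in Medium, 35.3 and 12.4 in Small, and 52.9 and 13.6 in All. Every number 1 library of Ccne1 was above every number 2 library, the extremes were 24.03-fold apart, and its Large and Small groups overlapped. Ccne1 gave log2 0.77 (SE 1.26) for Large against Small, with 0.68 within number 1 and 1.14 within number 2. Ccne1 had an adjusted p = 0.182 in DESeq2 with the block. Without Large 1 the Ccne1 difference turned to a log2 fold change of -0.44, and without Small 1 it was 2.36. In Ccne2 the Large values exceeded both Small values. Ccne2 gave log2 1.30 (SE 0.87) for Large against Small, with 1.13 within number 1 and 1.69 within number 2. Ccne2 had an adjusted p = 0.00022 in DESeq2 with the block.

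**Figure D2:**
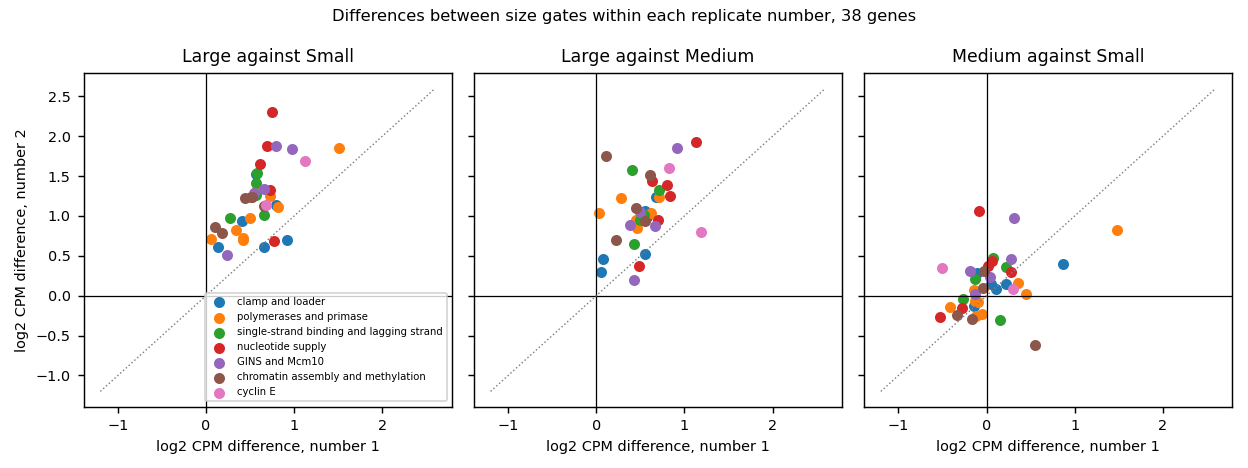
Each point is 1 of the 38 genes, coloured by function; the axes are the log2 CPM differences within number 1 (horizontal) and within number 2 (vertical) for 3 pairs of size gates, and the dotted line marks equal differences. All 38 points have positive differences on both axes for Large against Small and for Large against Medium, and they scatter around 0 for Medium against Small.

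Large HSCs differed from Medium HSCs in nearly the same way. All 38 genes were higher in Large within both numbers (32.9% of all genes were), and for 30 both Large libraries lay above both Medium libraries (18.3% of all genes). The median log2 fold change was 0.74 (0.16 to 1.39), with 0.53 within number 1 and 1.00 within number 2. It was 1.16 without Medium 1 and 0.40 without Medium 2. edgeR's quasi-likelihood test called 0 of the 38 (0% of all genes; Benjamini-Hochberg adjusted p = 0.989 for each). Of the 38, 6 were higher at an unadjusted p under 0.05, against 0.878% of all genes. DESeq2 with the block called 26 higher and 0 lower, against 3.44% of all genes, while edgeR and limma-voom with the block called none of the 38. The largest difference was in Rrm2 (log2 1.39, SE 0.97; 1.13 within number 1 and 1.93 within number 2), followed by Mcm10 (log2 1.23, SE 0.80). The smallest were in Rfc1 (log2 0.16, SE 0.23) and Rfc2 (log2 0.27, SE 0.22).

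Medium and Small HSCs showed no common direction over the 38 genes. The median log2 fold change was 0.06 (-0.46 to 1.27), 16 genes were higher and 11 lower in Medium within both numbers, and the shares of all genes were 30.1% and 29.3%. edgeR called 0 of the 38 (0% of all genes), and DESeq2 with the block called 2 higher and 0 lower (1.72% of all genes called higher). The median was 0.63 without Small 1 and -0.35 without Medium 1, so its direction depends on single libraries. The 2 called genes, Pola1 (log2 1.27, SE 0.58; adjusted p = 0.00177) and Rfc1 (log2 0.65, SE 0.24; adjusted p = 0.0365), were also the only genes of the 38 with both Medium libraries above both Small libraries, as 16.6% of all genes had. For the other 36 genes the fitted step from Medium to Large was larger than the step from Small to Medium. The 2 steps share the Medium libraries.

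Against All HSCs, which contain every size, Large HSCs were higher within both numbers in 37 of the 38 genes (31.2% of all genes), and 28 were free of overlap (15.8% of all genes). The median log2 fold change was 0.80 (-0.31 to 1.27), with 0.49 within number 1 and 1.23 within number 2; these comparisons share the Large libraries with those above. It was 1.35 without All 1 and 0.35 without All 2. edgeR's quasi-likelihood test called 0 of the 38 (0% of all genes; lowest Benjamini-Hochberg adjusted p = 0.885). At an unadjusted p under 0.05, 6 of the 38 were higher (1.34% of all genes). DESeq2 with the block called 31 higher and 0 lower (6.13% of all genes called higher), and edgeR and limma-voom with the block called none of the 38. The exception was Ung, with 0.08 within number 1 and -0.75 within number 2. The largest differences were in Rrm2 (log2 1.27, SE 0.96), Mcm10 (log2 1.26, SE 0.80), and Ccne1 (log2 1.10, SE 1.27), each with All 2 as its lowest library.

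Medium and Small HSCs showed no common direction against All HSCs. Medium against All had a median log2 fold change of 0.03, with 11 genes higher and 6 lower within both numbers (24.6% and 24.9% of all genes) and 0 called by edgeR (0% of all genes) or by DESeq2 with the block (0.0747% of all genes). Its median turned to -0.41 without All 2 and was 0.63 without All 1. Small against All had a median of 0.00, with 14 higher and 14 lower within both numbers (26.7% and 31.3% of all genes) and 0 called by edgeR (0% of all genes). Its median was -0.55 without Small 1 and 0.65 without All 1. DESeq2 with the block called 2 genes lower in Small than in All, against 0.778% of all genes, again Pola1 (log2 -0.98, SE 0.58; adjusted p = 0.0463) and Rfc1 (log2 -0.73, SE 0.24; adjusted p = 0.026). Both Small libraries lay above both All libraries for 2 of the 38, as for 1920 of the 16066 genes tested. These 2 were Pold1 (log2 0.45, SE 0.23) and Pola2 (log2 0.39, SE 0.23), without passing a test. For another 2 of the 38 both Small libraries lay below both All libraries, as for 2375 of all genes tested.

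**Figure D3:**
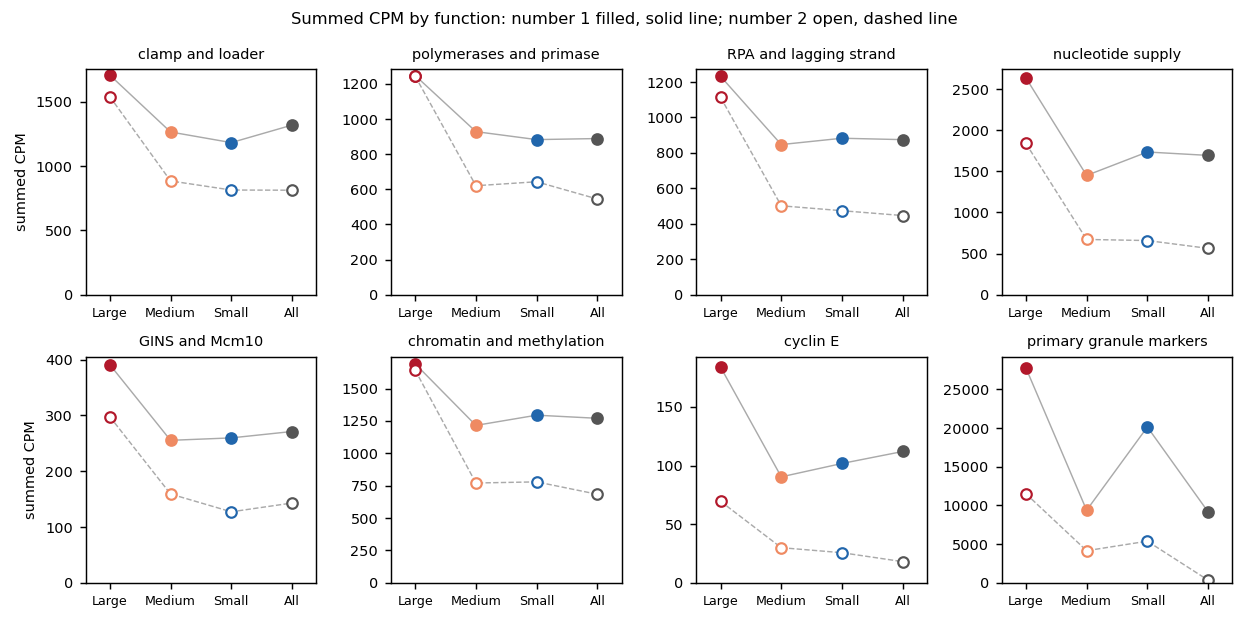
Each panel sums the CPM of 1 functional group, with the primary granule markers last; points are libraries, ordered Large, Medium, Small and All, filled with a solid line for number 1 and open with a dashed line for number 2. In the 7 replication panels Large is the highest of its number, and the granule markers peak in both Large and Small 1.

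These genes differed between the replicate numbers by about as much as between the sizes. In edgeR's quasi-likelihood test with group and number as terms, 26 of the 38 were higher in number 1 and 0 were lower (Benjamini-Hochberg adjusted p under 0.05), against 12.1% of all genes called higher in number 1. All 38 had a positive log2 fold change, with a median of 0.70 and a range of 0.17 to 2.30, and 27 were higher in number 1 in each of the 4 groups. The largest differences were in Ccne1 (log2 2.30, SE 0.36, adjusted p = 0.00651), Rrm2 (log2 1.65, SE 0.36, adjusted p = 0.0344) and Ccne2 (log2 1.54, SE 0.19, adjusted p = 0.00153). The smallest were in Pold1 (log2 0.17, SE 0.12, adjusted p = 0.329) and Chaf1b (log2 0.18, SE 0.12, adjusted p = 0.301). By function, the count of genes called higher in number 1 was 5 of 6 for nucleotide supply, 5 of 5 for GINS and Mcm10, 2 of 2 for cyclin E and 4 of 5 for the lagging-strand group. It was 4 of 6 for the clamp, 3 of 5 for chromatin and 3 of 9 for the polymerases. The count rests on the Small and Medium libraries in particular: it was 10 without Small 1 or without Small 2 (4.77% and 4.78% of all genes) and 13 without Medium 1 or without Medium 2 (7.17% and 7.3% of all genes). Calls over all genes thus became fewer too. What the number stands for is not given in the labels, and its part in the differences between gates was not tested beyond the values within each number.

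**Figure D4:**
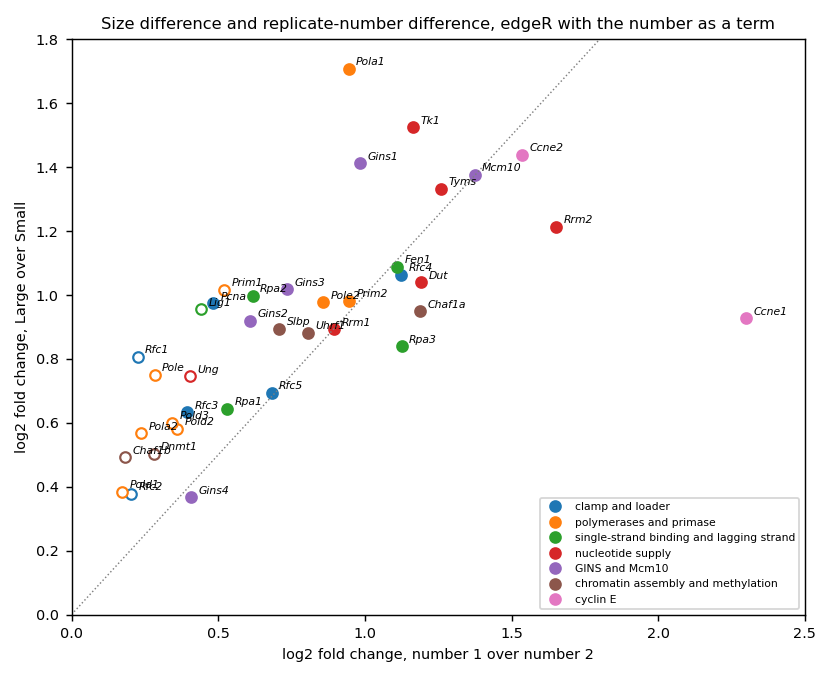
Each point is 1 of the 38 genes, with the log2 fold change of number 1 over number 2 (horizontal) and of Large over Small (vertical) from the same edgeR fit; filled points passed the test of the number, and the dotted line marks equal size. Pola1 lies far above the line, with 1.71 for size and 0.95 for number, and Ccne1 far to the right, with 0.93 and 2.30.

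Per transcript length, subunits of one complex had unequal levels. Of 13 ratios between genes of related function, 7 moved more than 2-fold across libraries. Not all 13 pairs are subunits of one complex: they include Ccne1 with Ccne2, Uhrf1 with Dnmt1, and Pcna with Rfc3. The ratios of Ccne1 to Ccne2 (5.88-fold) and Uhrf1 to Dnmt1 (2.14-fold) are among the 7. The 3 subunits of replication protein A were close, with means over the 8 libraries of 133 TPM for Rpa1, 126 TPM for Rpa2 and 124 TPM for Rpa3. The clamp loader was uneven, with 531 TPM for Rfc2, 176 for Rfc5, 151 for Rfc4, 95.8 for Rfc3 and 50.1 for Rfc1, and the ratio of Rfc2 to Rfc3 moved only between 4.37 and 6.23. GINS likewise spread over 78.0 TPM for Gins4, 69.8 for Gins2, 37.3 for Gins1 and 13.4 for Gins3. In the polymerase alpha-primase complex the TPM ratio of Prim1 to Pola1 was 4.60 and 6.11 in Large, 3.98 and 4.36 in Medium, 7.35 and 9.46 in Small, and 4.51 and 4.63 in All, so both Small libraries stood above the 6 others. The TPM ratio of Rrm1 to Rrm2 was 0.86 and 1.03 in Large, 1.15 and 1.35 in Medium, 0.87 and 1.34 in Small, and 0.98 and 3.30 in All, with All 2 far above the other 7 libraries. The ratio of Pole to Pole2 lay between 0.636 in Large 1 and 2.73 in All 2, and that of Ccne1 to Ccne2 between 2.72 in Small 1 and 0.463 in All 2. The ratio of Chaf1b to Chaf1a reached 8.05 in All 2 and 6.42 in Medium 2, and stayed between 1.99 and 3.89 in the other 6 libraries. These ratios are descriptions with no test.

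**Figure D5:**
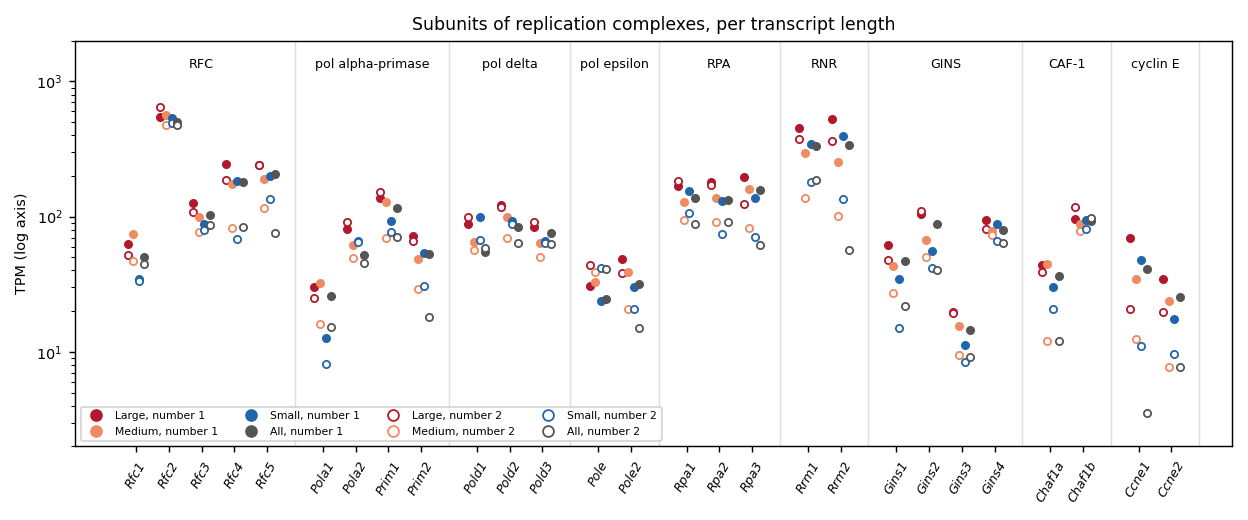
Each column is 1 gene, grouped by complex with the cyclin E genes last, and each point is 1 library, as TPM on a log axis. Filled points are number 1 and open points number 2, with Large left of Medium, Small and All. Within RFC the 8 Rfc2 points lie together at the top, near its mean of 531 TPM, and Ccne1 has the longest column, ending at 3.56 TPM in All 2.

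Other genes of the same pathways were taken from 4 lists, of 26 fork genes, 21 genes of deoxynucleotide and pyrimidine metabolism, 14 purine genes, and 9 histone chaperones and methylation helpers. Of these, edgeR called 0 between Large and Small (0% of all genes). Of all genes, 32.9% were higher and 30.9% lower in Large within both numbers, and 17.7% were free of overlap with Large above. DESeq2 with the block called 4.68% of all genes higher. These shares apply to each of the 4 lists. The fork genes had a median log2 fold change of 0.75, with 23 of 26 higher and 2 lower in Large within both numbers, 18 free of overlap, and 14 called higher and 0 lower by DESeq2 with the block. Clspn, the checkpoint adaptor claspin, had 42.3 and 27.4 CPM in Large, 31.8 and 13.2 in Medium, 14.8 and 3.86 in Small, and 26.7 and 10.3 in All. Atad5, which unloads the clamp, had 50.7 and 31.9 CPM in Large, 35.5 and 14.0 in Medium, 18.0 and 8.85 in Small, and 36.7 and 14.7 in All. Both Small libraries were the lowest of their number in each gene (Large against Small log2 1.89, SE 0.80 for Clspn and log2 1.62, SE 0.66 for Atad5).

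Deoxynucleotide and pyrimidine genes outside the 38 showed a smaller difference, with a median of 0.30, 15 of 21 higher and 4 lower within both numbers, and 7 called higher and 2 lower by DESeq2 with the block (4.28% of all genes called lower). Mthfd2, a mitochondrial folate enzyme, had 58.7 and 44.1 CPM in Large, 33.8 and 20.0 in Medium, 35.0 and 10.9 in Small, and 42.1 and 7.37 in All. Its Large libraries were the highest of their number (log2 1.16, SE 0.85 for Large against Small). The purine list had a median of 0.40, with 12 of 14 higher within both numbers, 7 free of overlap and 6 called higher by DESeq2 with the block, led by the salvage enzymes Hprt (log2 0.68, SE 0.26) and Aprt (log2 0.63, SE 0.27). Histone chaperones and methylation helpers had a median of 0.47, with 8 of 9 higher within both numbers and 5 called higher by DESeq2 with the block, led by the chromatin remodeller Hells (log2 1.17, SE 0.57) and the histone chaperone Nasp (log2 0.99, SE 0.54).

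Markers of cell state differed beside these genes. A list of 10 mitosis genes had a summed level of 2107 and 1344 CPM in Large, 1288 and 519 in Medium, 1444 and 508 in Small, and 1727 and 327 in All. Of the 10, 9 were higher in Large than in Small within both numbers (median log2 0.95), as were 32.9% of all genes. None of the 10 was at 0 in any library. Of 12 HSC markers, 10 were lower in Large than in Small within both numbers (median log2 -0.79), as were 30.9% of all genes. Their summed level was 1011 and 2216 CPM in Large, 1967 and 3063 in Medium, 1857 and 3780.3 in Small, and 1882 and 4112 in All. The 6 primary granule markers of early granulocyte progenitors included Mpo and Elane. Of these 6, 5 were higher in Large than in Small within both numbers (32.9% of all genes), with a median of log2 0.85. Both Large libraries lay above both Small libraries for 0 of the 6 (17.7% of all genes). The summed level of the 6 was 27779.8 and 11514 CPM in Large, 9374 and 4145 in Medium, 20138 and 5377 in Small, and 9167 and 336 in All. No HSC or primary granule marker was at 0 in any library, the lowest values being 4.50 CPM for Fgd5 and 2.31 CPM for Cebpe. The summed granule markers and the summed replication genes were each highest in Large within each number and lowest of all in All 2. Small 1 and Medium 1 had 20138 and 9374 CPM of granule markers, and 6339 and 6052 CPM of replication genes. The part of such cells in the result was not tested.

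Markers of other cell types varied between libraries. The 10 B cell markers summed to 243 and 4069.5 CPM in Large, 874 and 1174 in Medium, 1209 and 299 in Small, and 417 and 211 in All, and 2 of the 10 were at 0 in at least 1 library. The 10 erythroid markers summed to 2265 and 534 CPM in Large, 1498 and 365 in Medium, 2072 and 273 in Small, and 1324 and 544 in All. The 10 markers of mature granulocytes and monocytes summed to 21651 and 14613 CPM in Large, 18855 and 6244 in Medium, 30381 and 9419.8 in Small, and 56630.2 and 4572 in All. Large 2 was the highest library for B cell markers, Large 1 for erythroid markers and All 1 for mature granulocyte and monocyte markers. The 7 T and NK cell markers summed to 974 and 375 CPM in Large, 476 and 204 in Medium, 640 and 193 in Small, and 394 and 69.9 in All. Large was thus the highest of its number for this sum, but Nkg7 alone made up most of the sum in every library, with 970 and 348 CPM in Large. Of the 6 markers tested, 1, Nkg7, was higher and 2 were lower in Large than in Small within both numbers (32.9% and 30.9% of all genes). The 6 macrophage markers summed to 129.5 and 79.7 CPM in Large, 89.9 and 34.4 in Medium, 148 and 104 in Small, and 105 and 34.3 in All. Small was the highest of its number, and 4 of the 6 were lower in Large than in Small within both numbers (30.9% of all genes). Those 4, C1qa, C1qb, C1qc and Spic, had at most 10.9 CPM in any library. Most of the sum was Vcam1, with 118 and 68.9 CPM in Large and 117 and 74.5 in Small. The 6 multipotent progenitor markers summed to 984 and 2426 CPM in Large, 751 and 2529 in Medium, 1057 and 2784 in Small, and 899 and 1462 in All, with Small again the highest of its number. The 6 mast cell and basophil markers, 1 of them not detected, summed to 335 and 402 CPM in Large, 289 and 83.6 in Medium, 872 and 14.4 in Small, and 175 and 21.5 in All. The part of these cells in the result was not tested.

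Some counts may be shared with other genes. Copies among the transcripts of other genes, aligned in the same orientation, exist for Pcna, Rfc5, Uhrf1, Slbp and Rrm2. They aligned at 95% identity or more over at least 400 bases. The copy of Pcna, Pcna-ps2, had 2.20 to 7.01 CPM, and the copies Gm12870 of Rfc5, Gm5648 of Uhrf1 and Gm8396 of Slbp had at most 1.14, 0.836 and 0.188 CPM. Exons on the opposite strand overlap Gins2 (Gse1), Fen1 (Gm10143), Chaf1a (Ubxn6), Rfc2 (Lat2), Rfc5 (Wsb2) and Ccne2 (Ints8). The sources used here do not say whether counting used strand, so these 6 are uncertain to that extent. Ints8 had 33.7 to 101 CPM and was above Ccne2 in every library, with 474 bases shared. Ubxn6 had 41.8 to 91.2 CPM, with 1285 bases shared. It was above Chaf1a in Medium 2, Small 2 and All 2, and below Chaf1a in the other libraries. Gse1 shared 2758 bases with Gins2 and had at most 41.5 CPM, below Gins2 in every library.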

How the data were processed

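Per the submitters' processing notes, STAR 2.5.3a, RSEM 1.3.0, SAMtools 1.3 and the mm10 build were used, and the annotation release was not given in the sources used here. Estimated counts per gene, as whole numbers without scaling, and log2(TPM + 1) values, from which TPM was taken back, are what the authors deposited. Gene IDs were matched to GENCODE M21 (GRCm38) symbols for 50376 of 50686 genes, and coordinates are from that annotation. The main test was edgeR 4.0.16's quasi-likelihood test in R 4.3.3 (TMM, robust, filterByExpr with a minimum count of 10), on all 8 libraries with group as the only term and 4 residual degrees of freedom. Two-sided p-values were adjusted by the Benjamini-Hochberg method over 16066 genes. Differences within a number use log2 CPM with a prior count of 2.

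Alternatives were DESeq2 1.42.0, limma 3.58.1 (voom, and trend on the deposited log2 values), other scaling and filters, each library left out in turn, and the replicate number as a block (3 residual degrees of freedom). Same-numbered libraries deviated from their group means together, with correlations of 0.358 to 0.439 over the 6 pairs of groups. The block and the differences within a number therefore treat same-numbered libraries as pairs. The main test does not, and the log2 fold changes printed with an SE for the gate comparisons come from that unpaired fit. For Pcna, Large against Small, the SE was 0.33 there and 0.15 in edgeR with the block. The labels do not say what a number marks. The model-fitting script was tested on simulated counts. Counting error was not separated from other spread.

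The members and lists were chosen with earlier results of these data known. Values in every library are given for the gene with the highest mean TPM, and for those with the largest and smallest log2 fold change of Large against Small, in each functional group, and for any gene past the threshold in any comparison; other lists give the 2 genes with the largest such change, of which 1 is not reported here. Promoter sequences are from RefSeq (GRCm38.p6).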

Additional observations from a re-analysis of the deposited data

How the results depend on the processing

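Over 17 alternatives and 38 genes, 645 of 646 Large against Small fold changes stayed positive; the exception was Ccne1 without Large 1 (-0.4362), where leaving out 1 library gave -0.4362 to 2.3588. Of the 646, 30 newly passed the threshold, 29 of them by DESeq2 with the replicate block and 1, Pola1, by edgeR with no filter (adjusted p = 0.00219). Counts of all genes called, 0 by edgeR in each comparison, moved as follows. Between Large and Small the count was 55 with no filter, 12 by DESeq2, 1 by limma-trend on log2(TPM + 1), 1439 by DESeq2 with the replicate block and 18 by limma-voom with the block. Between Large and Medium it was 58, 2, 1 and 960 by the first 4 of these; between Large and All it was 121, 8, 1, 1652 and 48 by the 5. With no filter, by DESeq2 and by DESeq2 with the block it was 73, 47 and 525 for Medium against Small, 48, 6 and 12 for Medium against All, and 69, 19 and 374 for Small against All. The cause was not tested. With the block edgeR still called 0 in all 6 comparisons, so the block changed no edgeR call. Leaving out each library in turn, edgeR called 0 in each comparison, and the median log2 fold change of the 38 genes ran over 0.447 to 1.3145 (Large against Small, lowest without Small 2 and highest without Small 1), 0.4016 to 1.1616 (Large against Medium, without Medium 2 and without Medium 1), 0.3458 to 1.347 (Large against All, without All 2 and without All 1), -0.3464 to 0.6259 (Medium against Small), -0.4117 to 0.6268 (Medium against All) and -0.5504 to 0.647 (Small against All). Genes free of overlap with Large above were 33 to 38 against Small, 30 to 38 against Medium and 28 to 37 against All when a library was left out. The same shares of all genes were 27.5% to 40.1%, 29.4% to 37.9% and 25.9% to 39.8%. Leaving out a library can only keep or raise such a count, so these ranges do not test it. This alternative was chosen after seeing the data. The 3947 genes called between the numbers became 1947 to 3157, and the 26 replication genes among them 10 to 29. On the deposited log2(TPM + 1) scale the median of all genes between Large and Small was -0.11 and that of the 38 genes 0.73.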
